A study of Caenorhabditis elegans with 4 samples.

Results

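C-type lectin genes were the nearest genes to 5 of the 365 peaks in a list of genomic regions from 6mA profiling of *Caenorhabditis elegans*. The members are the peaks whose nearest gene has a symbol beginning *clec-*, with 1 peak for each of *clec-112*, *clec-113*, *clec-80*, *clec-185* and *clec-9*. The deposited table describes all 5 genes as C-type lectins and as protein-coding. The rule therefore used the gene names of the peak list itself, so the presence of these genes beside peaks is how they were chosen and not a result.

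The series holds 4 genomic DNA libraries of whole wild-type Bristol animals at the L4 larval stage, raised at 22 °C, with 1 library in each group. The groups are antimycin-treated animals with an antibody against N6-methyladenine (the labels name an N6-methyladenosine antibody), antimycin-treated animals without antibody, untreated animals with the same antibody, and untreated animals without antibody. The labels give 1.92 µM antimycin in both treated groups, and the title of the treated antibody library gives 1.93 µM. The title of the untreated library without antibody names MeDIP-seq, and its grouping follows its label, which gives no antibody. The peak list carries a name prefix that no label explains, so it was tied to no library, and antimycin-treated animals were not compared with untreated animals. It holds no peak height, read count or p-value, so the depth is unknown and every value below is a position, a class, a distance or a width without replicate error.

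C-type lectins are proteins built around a C-type lectin-like domain, a fold first known from animal proteins that bind sugars in a calcium-dependent way, although many domains of this kind lack that activity. In *C. elegans* they form a large family, many members of which carry a signal for secretion. The messenger RNAs of many family members change in abundance when worms meet bacterial pathogens, and the family is therefore often described with the innate immune effectors of the intestine and epidermis. N6-methyladenine is an adenine base with a methyl group on its exocyclic nitrogen, and in immunoprecipitation of methylated DNA the fragments that the antibody binds are sequenced and regions of accumulated reads are called as peaks.

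The 5 peaks lay in 3 kinds of position. Promoter peaks were those of *clec-9*, *clec-80* and *clec-113*, an intron held that of *clec-112*, and an exon held that of *clec-185*. Promoters held 138 of 364 nuclear peaks (37.9%) and 81 of the 261 nearest to protein-coding genes (31.0%). No member was classed as intergenic or as a transcription termination site, the classes of 79 and 57 of the 364 nuclear peaks. All coordinates are those of the deposited table, on the build ce10, and the table lists every peak on the plus strand, so its strand column does not give gene orientation.

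The *clec-113* peak lay on chromosome I from 14057265 to 14057836 and was 572 bp wide. Its position was 656 bp upstream of the start of the transcript NM_061049. The *clec-9* peak lay on chromosome V from 16707111 to 16707587, was 477 bp wide and was placed 702 bp upstream of the start of NM_074826. The *clec-80* peak lay on chromosome IV from 2824424 to 2824838, was 415 bp wide and was placed 745 bp upstream of the start of NM_067856. These 3 promoter peaks on 3 different chromosomes were thus all upstream, and their distances fell within 89 bp of each other.

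They were on the far side of the promoter class. Signed distances in that class ran between -990 and 882 bp, with a median of -306 bp over 138 peaks and of -461 bp over the 81 nearest to protein-coding genes. Among all 138 promoter peaks, 23 (16.7%) lay as far upstream as the *clec-113* peak or farther, and among the 81 nearest to protein-coding genes 19 (23.5%) did. The band between the *clec-80* and *clec-113* distances held 8 of the 138 (5.80%) and 7 of the 81 (8.64%). The 3 lectin peaks are included in each of these counts. Their own distances set the edges of the band, so its share does not measure how unusual their closeness is. With the distance taken to run to the peak's centre, which the table does not state, the edge nearer to the start was 370.5 bp upstream in *clec-113*, 464 bp upstream in *clec-9* and 538 bp upstream in *clec-80*. The far edges were then 941.5, 940 and 952 bp upstream, in the same order of genes.

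**Figure D1:**
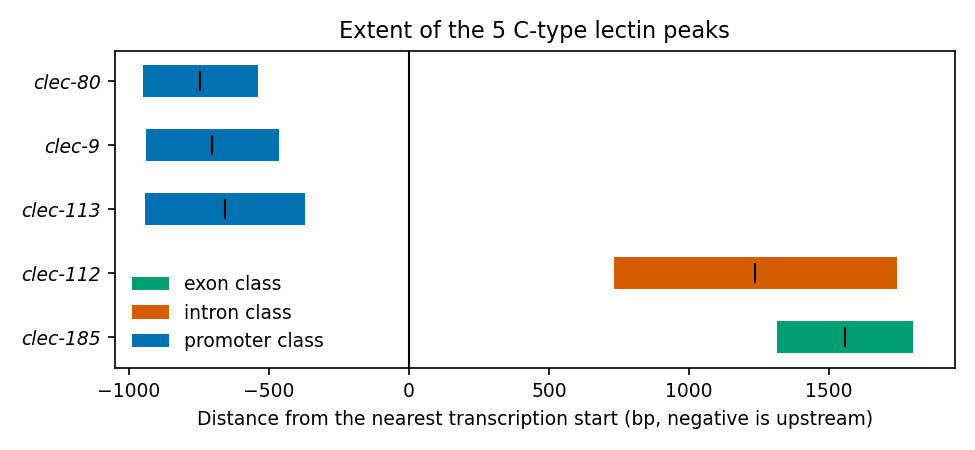
Extent of the 5 C-type lectin peaks relative to the nearest transcription start. The x axis is the distance in bp (negative is upstream) with the deposited distance taken as the peak's centre (black tick), bars show the whole peak, colours give the annotation class, and the vertical line is the start. The 3 promoter peaks lie at -745, -702 and -656 bp, the other peaks at 1238 and 1557 bp downstream, and no bar reaches the start.

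The *clec-112* peak was the broad one of the set. It lay on chromosome I from 13920106 to 13921120, in intron 4 of 8 of NM_061030, and was placed 1238 bp downstream of the start of that transcript. Its 1015 bp made it wider than 95.6% of the 364 nuclear peaks, the 16th widest, and the 5th widest of 75 intronic peaks, whose median width was 518 bp. Of those 75 peaks, 20 lay in a first intron and 37 (49.3%) in the fourth intron or a later one.

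The *clec-185* peak lay on chromosome IV from 12439993 to 12440480, in exon 5 of 7 of NM_069974, and was placed 1557 bp downstream of the start of that transcript. Exons were a small class, with 13 of 364 nuclear peaks (3.57%). The *clec-185* peak, at 488 bp, was the 3rd widest of them, after those nearest to M110.11 (723 bp) and the prion-like gene *pqn-67* (707 bp), and the median of the class was 368 bp. It was also the 4th farthest of the 13 from its nearest start, where the class median was 1054 bp.

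The 5 widths ran from 415 to 1015 bp with a median of 488 bp, and the 5 peaks covered 2967 bp together. All nuclear peaks had a median of 404 bp (quartiles 310 and 541.5 bp, from 229 to 1732 bp), and the 256 peaks nearest to other protein-coding genes had a median of 403 bp. Each of the lectin peaks was wider than the nuclear median: *clec-80* was wider than 53.3% of nuclear peaks, *clec-9* than 66.5%, *clec-185* than 67.3% and *clec-113* than 78.0%. Without the *clec-112* peak the widths stayed between 415 and 572 bp. Width carries no measure of signal here, since the table gives no height for any peak.

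The distances to the nearest start ran from 656 to 1557 bp without regard to side, with a median of 745 bp. The 364 nuclear peaks had a median of 1104.5 bp (quartiles 415 and 2179.5 bp, from 1 to 9349 bp), and those nearest to other protein-coding genes had a median of 1329.5 bp. In the order of distance, *clec-113* was farther from its start than 36.0% of nuclear peaks, *clec-9* than 37.6%, *clec-80* than 39.0%, *clec-112* than 53.0% and *clec-185* than 62.9%. All 5 lay between the quartiles of the nuclear list. Upstream peaks were 3 of 5, against 206 of 364 (56.6%) over the nuclear list. No lectin peak reached over its nearest start, which 53 nuclear peaks did (14.6%) and 17 of the 261 nearest to protein-coding genes (6.51%).

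**Figure D2:**
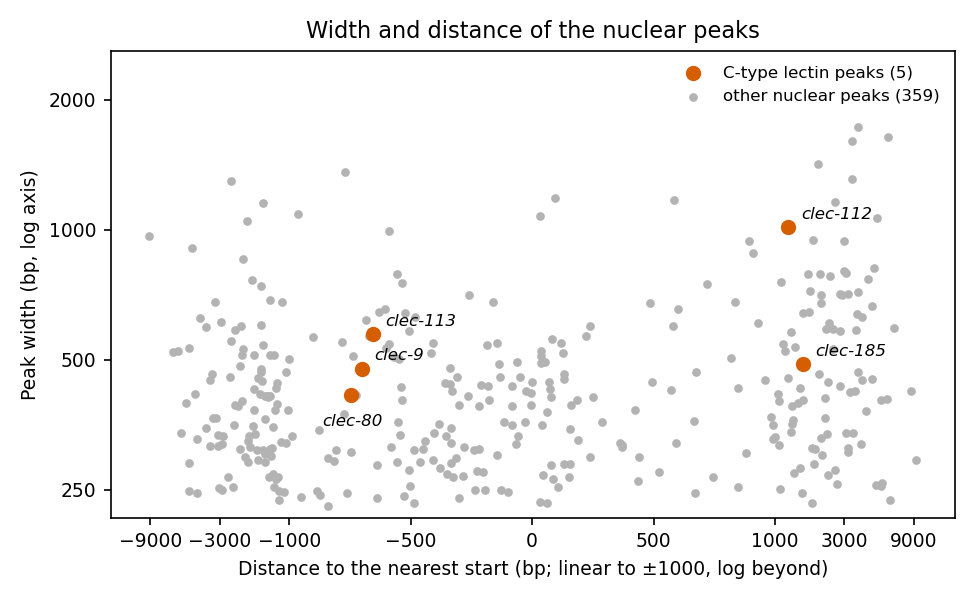
Peak width (bp, log axis) against the signed distance to the nearest start (bp, linear within 1000 bp and logarithmic beyond) for all 364 nuclear peaks. Orange points are the 5 C-type lectin peaks and grey points the other 359. The 3 upstream lectin peaks sit close together at 415 to 572 bp of width, and *clec-112*, at 1015 bp, stands above the other 4.

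The transcript named by the annotation and the transcript at the nearest start were the same in all 5 lectin peaks. Over the nuclear list this held for 184 of the 285 peaks with an annotated transcript (64.6%). It held for 123 of the 193 such peaks nearest to other protein-coding genes (63.7%). For F-box and *pals* genes it held for all 4 such peaks, and for chemoreceptor genes for 4 of 6 (66.7%). These shares were not matched by annotation class. For 4 members the RefSeq gene table of the assembly WBcel235 gives this transcript to the same *clec-* gene. The accession of the *clec-80* start, NM_067856, did not match that table, as was the case for the nearest transcripts of 51 of 364 nuclear peaks.

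One further peak was annotated to a transcript of the family without being a member. It lay on chromosome IV from 4008837 to 4009185, was 349 bp wide and was annotated to intron 19 of 25 of NM_068053, which the gene table gives to *clec-78*. In the order of protein-coding genes *clec-78* stands between *srh-223* and F47C12.6, and the placement of its transcript was checked by chromosome only. The start nearest to this peak, 1286 bp away with the peak upstream, belonged to NM_001268326 of W02C12.2, so the nearest-gene rule counted it there. The next listed peak, 19.2 kb away, had *hlh-30* as its nearest gene, which codes for a TFEB-like transcription factor of autophagy and host defence, and was annotated to the promoter of F35F11.4. By annotated transcripts that match the gene table, 5 peaks fell in the family: this one and those of *clec-9*, *clec-112*, *clec-113* and *clec-185*. The *clec-80* peak dropped out of this count only because NM_067856, its annotated and nearest transcript, did not match that table.

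Of the 264 *clec-* genes of the gene table, 239 protein-coding and 25 pseudogenes, 5 were nearest to a listed peak (1.89%, exact 95% binomial interval 0.618 to 4.36%). That share was 0.769% over all 46926 genes of the table and 1.28% over its 19983 protein-coding genes. With protein-coding *clec-* genes alone as the base it was 2.09% (0.683 to 4.81%). No test was made, because the members were chosen by these same peaks. The intervals cover counting error only and do not compare the family with other genes.

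The family is spread unevenly over the chromosomes, with 96 genes on chromosome V, 58 on IV, 51 on II, 38 on I, 18 on III and 3 on X. The lectin peaks numbered 2 on chromosome I, 2 on IV and 1 on V. Among protein-coding *clec-* genes this was 2 of 36 on chromosome I (5.56%), 2 of 53 on IV (3.77%) and 1 of 85 on V (1.18%). Over all protein-coding genes the shares were 1.74% on chromosome I, 1.31% on IV and 0.981% on V. The 48 protein-coding *clec-* genes of chromosome II, the 14 of III and the 3 of X had no listed peak, where 0.9%, 1.70% and 1.36% of all protein-coding genes had one. Counts of 0 to 2 genes are too small to order the chromosomes by.

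**Figure D3:**
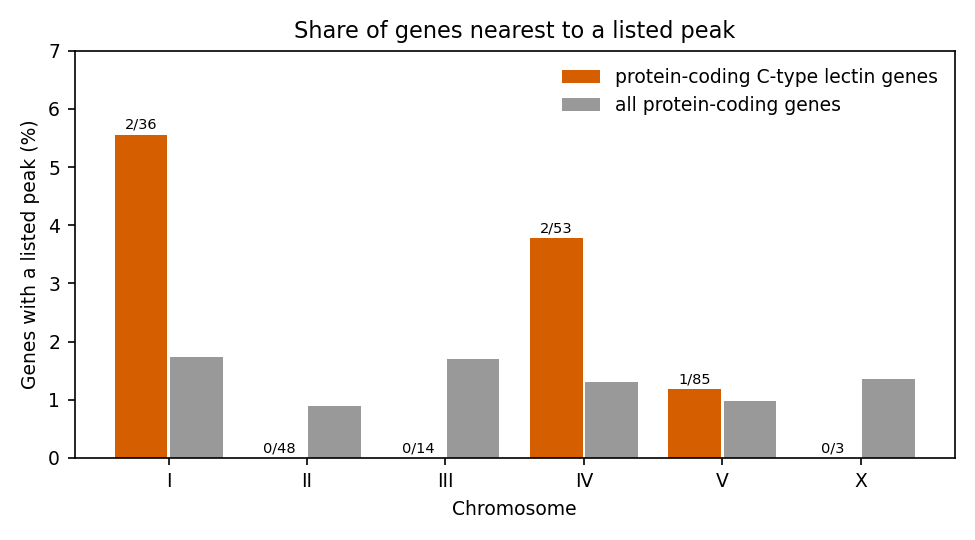
Share of genes that are nearest to a listed peak (%, y axis) by chromosome (x axis), for protein-coding C-type lectin genes (orange, with the count of genes with a peak over the number of genes) and all protein-coding genes (grey). The lectin bars rest on 2, 2 and 1 genes on chromosomes I, IV and V and are at 0 on II, III and X.

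The lectin peaks were not packed together. On chromosome I the *clec-112* and *clec-113* peaks were 137 kb apart between centres, at 92.3% and 93.2% of the way from the first to the last listed peak. No other listed peak lay between them. Their peak names carry the numbers 255 and 258, so numbered peaks may be missing from the list between them. Despite their consecutive gene numbers, the gene table places 23 protein-coding genes between *clec-112* and *clec-113*, and none of these is a *clec-* gene. On chromosome IV the *clec-80* and *clec-185* peaks were 9.62 Mb apart with 39 listed peaks between them, at 15.9% and 71.0% of the listed span. The *clec-9* peak, the single member on chromosome V, lay at 80.1% of its listed span.

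The nearest other listed peak was 5.71 kb away for *clec-80*, 49.7 kb for *clec-9*, 69.5 kb for *clec-185*, 126 kb for *clec-113* and 137 kb for *clec-112*. The median of these, 69.5 kb, lay within the quartiles of all nuclear peaks (25.3 and 179 kb, median 81.5 kb). Within 250 kb on either side, *clec-113* and *clec-80* had 3 other listed peaks and *clec-112*, *clec-185* and *clec-9* had 2, where the median over nuclear peaks was 2 and the highest count 8. The peaks of *clec-185* and *clec-9* had these neighbours only on the side of lower coordinates. The next listed peak on the other side was 822 kb and 1005 kb away, in that order. Across these gaps the numbers in the peak names differed by 11 and 8. A stretch without listed peaks is thus not shown to be without called peaks.

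**Figure D4:**
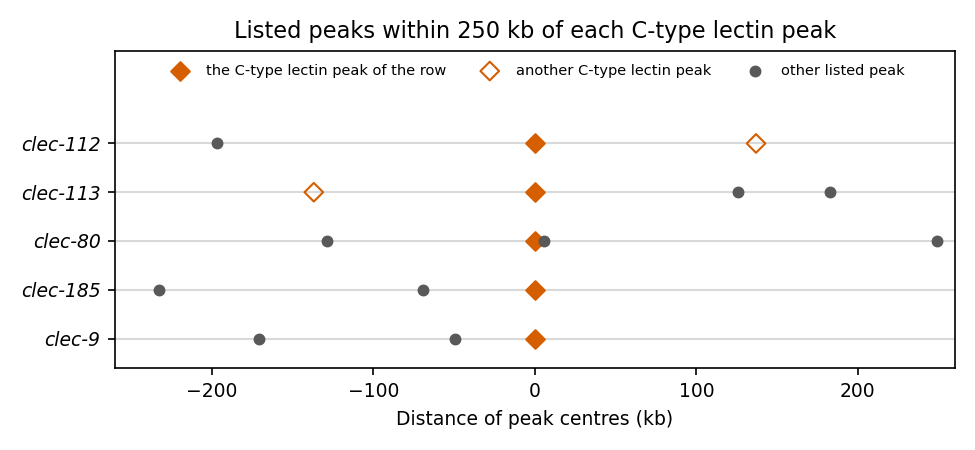
Listed peaks within 250 kb of each C-type lectin peak, drawn by the distance between peak centres (kb, x axis) with 1 row for each lectin peak. Filled diamonds are the lectin peak of the row, open diamonds another lectin peak and grey points other listed peaks. The *clec-80* peak has a listed peak 5.71 kb away, and *clec-112* and *clec-113* appear in each other's rows at 137 kb.

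The close neighbour of the *clec-80* peak was the peak nearest to Y54G2A.48, on chromosome IV from 2830037 to 2830643. That gene is also the next protein-coding gene after *clec-80* in the gene table. This neighbouring peak was 607 bp wide and was placed 2334 bp downstream of the Y54G2A.48 start. It was annotated to intron 2 of 3 of NR_050605, a transcript that the gene table places on chromosome I. The same disagreement of chromosome occurred for 8 of 246 peaks whose annotated transcript matched, none of them a lectin peak. The remaining listed neighbours of the 5 members were the peaks nearest to *hsd-1*, ZK849.1, Y94H6A.5, *wdr-46*, JC8.16, W06G6.15 and the potassium channel gene *twk-33*.

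In the order of protein-coding genes, *clec-* genes often stand side by side: 125 of 239 (52.3%) have another *clec-* gene directly next to them, and 173 (72.4%) have one within 10 genes. Of the members, *clec-112* is directly next to *clec-111*, on whose other side is *trp-4*, which encodes a mechanosensory channel of the TRP family. The gene *clec-185* is separated from *clec-184* by a single gene, *irg-4*, an infection response gene that is induced by the bacterium *Pseudomonas aeruginosa*. For *clec-80* the nearest family member is *clec-82*, with 3 genes between them, and 4 *clec-* genes lie within 10 genes. The gene *clec-9* stands between Y70C5C.1 and the chemoreceptor gene *srh-137*, with *clec-38*, its nearest family member, 8 genes away. The gene *clec-113* has no family member within 10 genes and lies between F47G4.14 and the high mobility group gene *hmg-6*, and the gene beyond F47G4.14 is *smd-1*, which encodes S-adenosylmethionine decarboxylase, an enzyme of polyamine synthesis. None of the neighbouring family members *clec-111*, *clec-184*, *clec-82* and *clec-38* was nearest to a listed peak.

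Peaks beside *clec-* genes but nearest to another gene were counted in the same way. Of 801 other protein-coding genes within 3 genes of a *clec-* gene, 13 were nearest to a listed peak (1.62%), against 237 of 18931 protein-coding genes farther away (1.25%). They included T07H3.8 next to *clec-21*, *gtnt-15* next to *clec-114*, K03H6.4 next to *clec-172* and C33D9.3 next to *clec-182*, whose peaks lay 990 bp upstream, 2965 bp downstream, 846 bp downstream and 2369 bp upstream of their starts. The kinase gene *tlk-1* and the calpain gene *clp-7*, each 3 genes from a family member, had intronic peaks.

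Other defence genes were counted from lists of families and regulators. Of 12 galectin, 16 lysozyme, 11 caenacin, 8 thaumatin, 6 *abf*, 36 fungus-induced and 8 *irg* genes, 0 were nearest to a listed peak, beside 0.769% of all genes and 1.28% of protein-coding genes, and at those shares lists of this size would hold few such genes or none. Of 30 saposin-like genes, whose products resemble lipid-binding antimicrobial proteins, 1 was (3.33%). This gene, *spp-21*, had a promoter peak 506 bp upstream of its start (chromosome X, 11489486 to 11489763, 278 bp). Among 30 immune regulators 2 were (6.67%), *hlh-30* and *ced-1*, an engulfment receptor gene. The *hlh-30* peak lay 136 bp upstream of its start and that of *ced-1* 6177 bp downstream, and in the gene table the annotated transcripts of both belong to other genes (F35F11.4 and *dhhc-2*). The *clec-* genes gave 5 of 264 (1.89%), against 3 of 157 (1.91%) in all these other lists together. Of those 3 genes, 2 came from the list of immune regulators. The lists were written with earlier results of these data known. Neither the nearness of the 2 shares nor the share of any single list is therefore a result.

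The chemoreceptor genes, another large family of worm genes that often stand in runs, were nearest to 10 listed peaks. The lectin peaks had a median width of 488 bp and a median distance of 745 bp, with 3 of 5 in promoters, against 449.5 bp, 1412 bp and 2 of 10 for the chemoreceptor peaks. The 5 peaks nearest to F-box and *pals* genes had a median width of 600.0 bp and a median distance of 580.0 bp, with 1 of 5 in promoters. These sets of 5, 10 and 5 peaks chosen by gene name were not tested against each other, and no difference between the families is claimed.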

How the data were processed

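Per the labels, 4 *C. elegans* genomic DNA libraries were sequenced, with a 6mA antibody for both treatments and without antibody for both. The single deposited table lists annotated peaks. The submitters' processing notes name the genome build ce10 and, with no roles, MACS2 2.1.0, Picard, Bowtie2 2.2.6 and Trimmomatic 0.35. How peaks were selected for the list, which tool annotated them and where its classes end is not given in the sources used here. Other values in the deposited table, per the file headers, are positions and distances in bp. Peak names number up to 1645, and 365 peaks are listed.

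The width of a peak is its end minus its start, plus 1. Distances between peaks run between centres. Names, biotypes, chromosomes and gene order came from the RefSeq table of WBcel235, whose start coordinates served only to order the genes. Of 364 nearest genes, 361 matched it. Gene order took protein-coding genes by start. No test was run: the members were chosen by the listed peaks, and each group has 1 library. Exact (Clopper-Pearson) 95% intervals cover counting error. The members, gene lists and alternatives were chosen with earlier results of these data known. All 5 members, their listed and genomic neighbours and the list members with a peak were named by a fixed rule. The *clec-78* peak, the peaks beside *clec-* genes and the exon peaks were chosen after their values were seen. Python 3.11.15, pandas 2.3.3, NumPy 2.4.6, SciPy 1.17.1 and Matplotlib 3.10.9 were used.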

Additional observations from a re-analysis of the deposited data

How the results depend on the processing

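The number of C-type lectin peaks was 5 by the nearest gene's symbol, by its description and after merging peaks within 1000 bp. Merging could not change it, since the listed peak closest to any member was 5.71 kb away. By the gene of the annotated transcript it was also 5, taking in *clec-78* and losing *clec-80*. That loss arose because NM_067856 did not match the gene table, so this equal count rests on a failed match. The promoter count of 3 became 0 with a promoter of 500 bp upstream to 100 bp downstream, since all 3 lie farther upstream. It was 3 with 1000 and 2000 bp. The 2000 bp setting could not raise it, since the other members lie 1238 and 1557 bp downstream. Leaving out each member in turn gave median widths of 482.5 to 530 bp and median distances of 723.5 to 991.5 bp. The median distance was 538 bp from the nearest edge and 970 bp without *clec-80*. Stricter peak thresholds were not run, because the table lists no scores. Alignment of the members' proteins and motif counts in their promoters were planned but not run, because no sequences were available here. No paired analysis was possible because there is a single library per group and the peaks could be assigned to none of them. The unknown depth means that absence of a gene from the list does not show absence of 6mA there.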
